A study of Homo sapiens with 6 samples.

Results

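The genes of the replicative DNA polymerases, of their sliding clamp and of the enzymes that finish lagging strand fragments were compared between brachyury-knockdown and control MDA-MB-231 cells. These were POLA1, POLA2 and PRIM1 of DNA polymerase alpha-primase, POLD1 and POLD2 of DNA polymerase delta, POLE and POLE2 of DNA polymerase epsilon, the clamp gene PCNA, the flap nuclease gene FEN1 and the ligase gene LIG1. They were chosen by symbol, and they were 10 of the 54259 gene symbols in the deposited count table. The MDA-MB-231 line, of human breast cancer, is established and of mesenchymal type. One group, shBry, carried a short hairpin RNA against brachyury, and the other, shNC, carried a control hairpin. Each group had 3 libraries. No drug, dose or time point is given in the labels, which also do not say whether the libraries came from separate cultures or whether the cells were 1 clone, so that the p-values measure the spread between these libraries, which may be technical.

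Between 19319411 and 22985371 reads were counted per library. Brachyury, listed under its older symbol T, had 0 counts in all 6 libraries, where 3 counts would be between 0.131 and 0.155 CPM (counts scaled to a common library total), so these counts give no check of the knockdown. The study describes brachyury as overexpressed in this line, but no read of it was counted in the shNC libraries either. Whether the differences below follow from loss of brachyury was not tested. In the deposited study description the RNA is named pericardial. The libraries held the mesenchymal markers of the cell line, such as VIM with 3864 ± 142 CPM in shNC (SD, n = 3), and of 9 pericardial and heart genes MYH6, MYH7 and NPPA had 0 counts in every library and ACTC1, TNNT2, UPK3B and WT1 at most 7. The mesothelial genes MSLN and CALB2 were present, with up to 1047 and 222 counts in a library. Of 5 epithelial and hormone receptor genes that are low or absent in the line, CDH1, ESR1 and PGR had at most 2, 1 and 1 counts, but EPCAM had up to 113 and GATA3 up to 313, and EPCAM was called higher in shBry. CPM are scaled with TMM, which assumes most genes alike between libraries. A negative log2 fold change means a lower level in shBry, and SE is its standard error.

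DNA polymerase alpha-primase lays down a short RNA and DNA primer at each start of synthesis. DNA polymerase epsilon then extends the leading strand and DNA polymerase delta the lagging strand, both held to the template by the PCNA ring. On the lagging strand, FEN1 cuts the displaced primer flap and DNA ligase I, the product of LIG1, seals the nick. Cells make these proteins mainly when they are dividing, and several of their genes are textbook targets of the E2F transcription factors.

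The mRNAs of the replicative enzymes were lower in shBry as a group, but not evenly. Of the 10 genes, 9 fell, meaning that the edgeR quasi-likelihood test gave an adjusted p under 0.05 and the fold exceeded 1.5, and none rose. By the same rule 15.2% of the 15277 genes tested were called lower, and 32.4% in either direction. All 10 had an adjusted p under 0.05 and a lower value, as did 25.3% of all genes tested, while 28% had such a p and a higher value. The falls ran from LIG1, at 24.7% of its shNC level, to POLA2, at 55%. POLD2 was the exception, at 85.1%. The median log2 fold change of the 10 genes was -1.35, against 0.03 for all genes tested. A fall of more than 2-fold was found for 6 of the 10, POLA1, POLD1, POLE, PCNA, FEN1 and LIG1, and for 6.82% of all genes tested. The 3 shBry values lay below the 3 shNC values for all 10 genes, as they did for 28.9% of all genes tested, whereas they lay above for 30.6%. Together the 10 genes had between 1198 and 1225 CPM in the shNC libraries and between 538 and 594 in the shBry libraries. In bulk RNA, fewer cells in S phase and less of each mRNA per cell cannot be told apart.

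**Figure D1:**
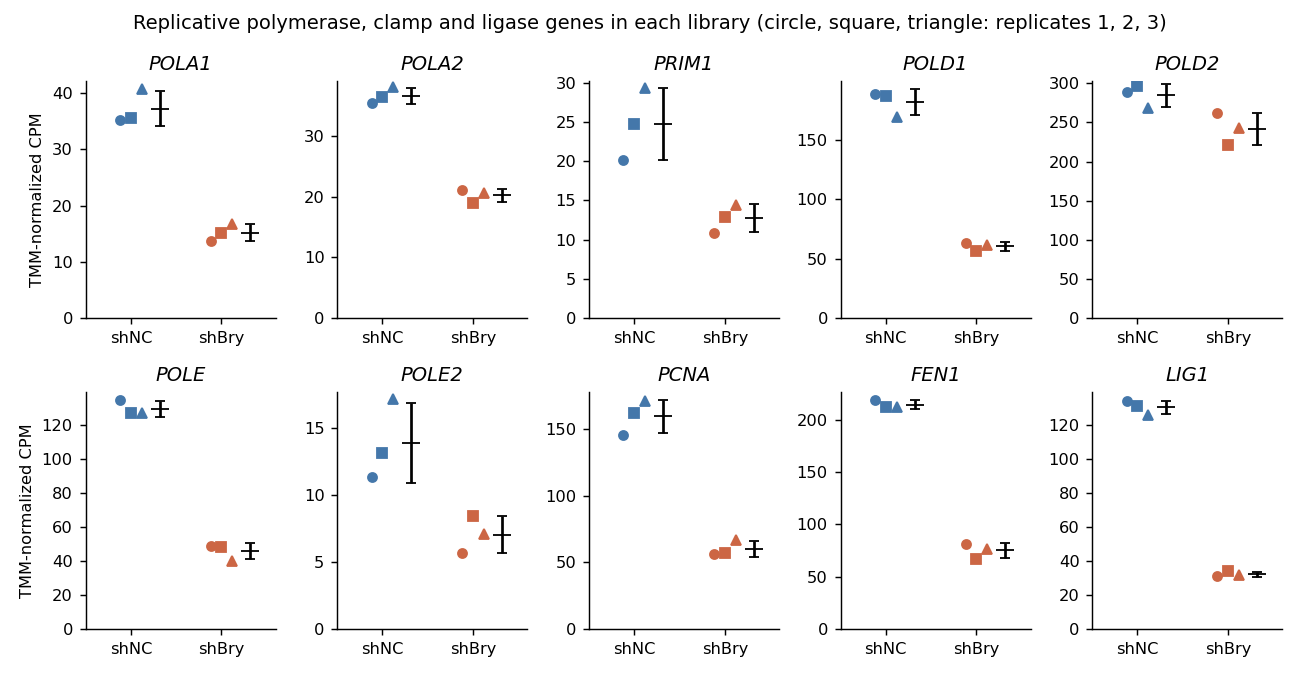
TMM-normalized CPM (y axis, from 0) of the 10 genes in the 3 shNC and 3 shBry libraries; points are libraries, and the black mark and bar are the mean and SD of each group. The groups do not overlap for any of the 10 genes, and POLD2 is the gene whose groups lie closest, at 285 and 242 CPM.

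The promoters of these genes were read from RefSeq on GRCh38.p14, because 9 of the genes moved together. A window around each annotated start, with 250 bases before it and 50 from it onward, was available for all 10 genes. An E2F-type word, meaning TTTGGCGC, TTTCCCGC, TTTGCCGC or TTTCGCGC on either strand, was found in the windows of 6 of the 10, POLA1, POLA2, POLE, POLE2, PCNA and LIG1. Such a word was in 3.31% of the 35116 windows of all genes. Of the 10516 tested genes with a window, 6.59% had it, and the share was 7.9% among those called lower and 4.18% among those called higher. The words were not found in the windows of PRIM1, POLD1, POLD2 and FEN1, which says only that these letters are not there. Genes without the word fell too, POLD1 to 33.2% and FEN1 to 35% of the shNC level, while POLE4, which has it, was not called. The last 140 bases before the start are shown for 4 genes with the word and for POLD2, 5′ to 3′ on the strand of the gene, with E2F-type words and CCAAT boxes (CCAAT on either strand) in capitals. They lie at chrX:24693778-24693917 on the plus strand for POLA1 and, on the minus strand, at chr12:132687343-132687482 for POLE, chr20:5126623-5126762 for PCNA, chr19:48170345-48170484 for LIG1 and chr7:44123549-44123688 for POLD2.
POLA1: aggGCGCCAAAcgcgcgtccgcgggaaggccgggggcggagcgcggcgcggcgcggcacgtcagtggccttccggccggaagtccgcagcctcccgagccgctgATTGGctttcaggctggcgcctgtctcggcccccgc
POLE: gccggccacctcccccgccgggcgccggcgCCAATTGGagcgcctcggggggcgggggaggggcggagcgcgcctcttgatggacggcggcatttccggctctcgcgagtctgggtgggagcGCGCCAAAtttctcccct
PCNA: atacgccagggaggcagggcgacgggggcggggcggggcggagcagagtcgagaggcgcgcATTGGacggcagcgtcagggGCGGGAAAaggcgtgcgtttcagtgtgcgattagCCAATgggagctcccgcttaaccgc
LIG1: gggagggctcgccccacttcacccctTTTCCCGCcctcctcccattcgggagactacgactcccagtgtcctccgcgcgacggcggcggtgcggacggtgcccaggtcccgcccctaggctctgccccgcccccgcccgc
POLD2: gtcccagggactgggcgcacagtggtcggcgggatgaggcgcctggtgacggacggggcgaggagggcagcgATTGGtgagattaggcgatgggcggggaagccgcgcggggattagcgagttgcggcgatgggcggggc
The E2F-type word began 137 bases before the start in POLA1, 114 in LIG1, 59 in PCNA and 18 in POLE. In POLE a pair of CCAAT boxes on opposite strands overlap each other. In LIG1 and PCNA the E2F-type word overlaps a GC box, GGGCGG on either strand, which 45% of all windows, 76.2% of tested genes with a window and 7 of the 10 genes hold. CCAAT, in 34.6% of all windows and in 42.8% of tested genes with a window, was in 5 of the 10, POLD2 among them. AGGTGTGA on either strand, a word bound by T-box factors such as brachyury, was in none of the 10 genes' windows. It was in 0.98% of all windows and in 1.03% of tested genes with a window. TTTGAA, the cell cycle homology element of many mitotic genes, was also in none of the 10 genes' windows. It was in 15.2% of all windows and in 13.5% of tested genes with a window. With 10 genes, absence of a word with such a share says little.

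**Figure D2:**
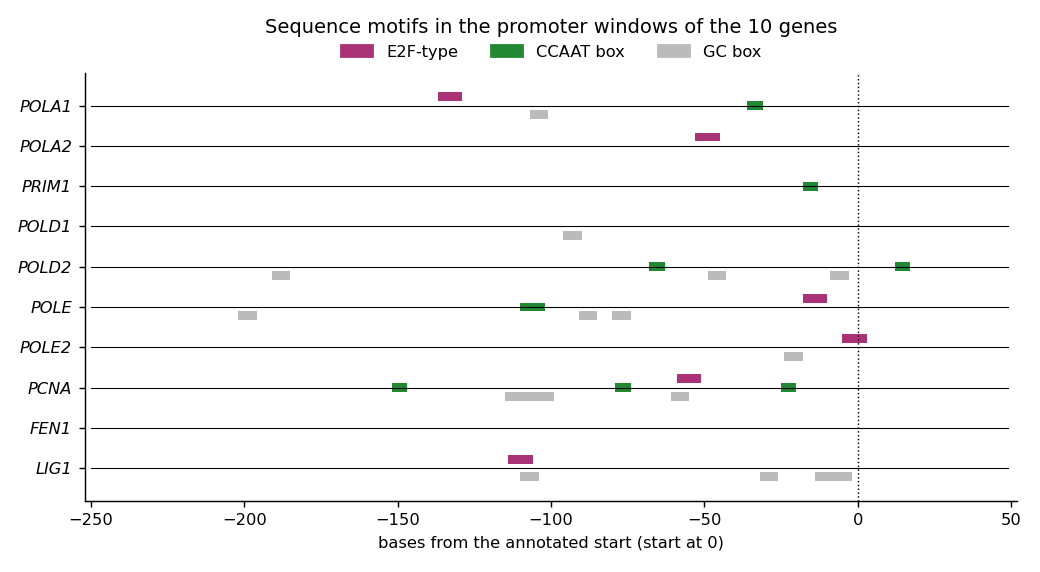
Positions of the E2F-type words, CCAAT boxes and GC boxes in the first promoter window of each of the 10 genes, in bases from the annotated start (x axis, start at 0). E2F-type words are present in 6 of the 10 windows and absent from those of PRIM1, POLD1, POLD2 and FEN1.

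The subunit genes of DNA polymerase alpha-primase were all lower in shBry. POLA1, the catalytic subunit gene on chromosome X from 24693919 to 24996986, had 35.2, 35.6 and 40.8 CPM in shNC replicates 1, 2 and 3 and 13.7, 15.2 and 16.8 in shBry. It fell by 1.29 on the log2 scale (SE 0.12, edgeR adjusted p = 7e-07). The highest shBry library was thus well under the lowest shNC library. POLA2, the gene of the regulatory B subunit on chromosome 11 from 65261762 to 65305589, had 35.5, 36.4 and 38.1 CPM in shNC and 21.1, 19 and 20.6 in shBry. Its log2 fold change was -0.86 (SE 0.10, edgeR adjusted p = 9.6e-06), the smallest of the 9 falls. AP000944.2, a gene on the same strand, overlaps 35.1% of the POLA2 exon bases, where the counting could have shared or dropped reads. PRIM1, the gene of the small primase subunit that makes the RNA primer, lies on chromosome 12 from 56731596 to 56752373. Its values were the most scattered after those of POLE2, with 20.2, 24.7 and 29.3 CPM in shNC and 10.9, 12.9 and 14.4 in shBry. The groups still did not overlap, and the log2 fold change was -0.95 (SE 0.15, edgeR adjusted p = 0.00012). Of the PRIM1 exon bases, 21.6% are shared with exons of neighbouring genes. PRIM2, the gene of the large primase subunit, fell too, from 39.2 ± 3.51 to 23.9 ± 1.58 CPM (SD, n = 3), with a log2 fold change of -0.72 (SE 0.11, edgeR adjusted p = 7.5e-05). PRIM2 was under the fold limit, at -0.52, when libraries were scaled by 14 reference genes, and 15.3% of its stretches of 50 bases occur in other transcripts.

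The subunit genes of DNA polymerase delta did not change alike. POLD1, the catalytic and proofreading subunit gene on chromosome 19 from 50384204 to 50418016, had 189, 187 and 169 CPM in shNC and 62.9, 56.4 and 61.8 in shBry. The log2 fold change was -1.59 (SE 0.09, edgeR adjusted p = 2.9e-09), a fall to 33.2%. POLD2, the gene of the subunit that joins the catalytic subunit to the rest of the complex, lies on chromosome 7 from 44114681 to 44124358. It had 289, 296 and 268 CPM in shNC and 262, 221 and 243 in shBry, so that the highest shBry value came close to the lowest shNC value. Its log2 fold change was -0.23 (SE 0.08, edgeR adjusted p = 0.031), under the fold limit. With a library left out, the adjusted p of POLD2 lay between 0.0095 and 0.082 and was above 0.05 in 4 of 6 fits. With libraries scaled by the reference genes its log2 fold change was -0.04 (edgeR adjusted p = 0.64), so the difference of POLD2 depended on the scaling. POLD3, the gene of the subunit that carries a PCNA-binding end, fell from 43.5 ± 2.39 to 22.4 ± 3.44 CPM (SD, n = 3), with a log2 fold change of -0.96 (edgeR adjusted p = 1.3e-05). POLD4, the gene of the smallest subunit, had 48.2 ± 6.34 CPM in shNC and 51.3 ± 4.57 in shBry, and its groups overlapped (log2 fold change 0.09, SE 0.11, edgeR adjusted p = 0.52). Without shNC replicate 3 the log2 fold change of POLD4 was -0.04.

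In DNA polymerase epsilon the catalytic and B subunit genes fell, and the genes of the small subunits were not called. POLE, the catalytic and proofreading subunit gene on chromosome 12 from 132623753 to 132687365, had 135, 127 and 127 CPM in shNC and 48.8, 48.4 and 40.3 in shBry. Its log2 fold change was -1.50 (SE 0.09, edgeR adjusted p = 1.3e-08), close to that of POLD1. POLE2, the gene of the B subunit on chromosome 14 from 49643555 to 49688422, was the lowest expressed of the 10, with 11.3, 13.1 and 17.1 CPM in shNC and 5.65, 8.39 and 7.05 in shBry. The groups were apart although the SD was 21.3% of the mean in shNC and 19.5% in shBry, and the log2 fold change was -0.97 (SE 0.18, edgeR adjusted p = 0.00051). With a library left out it lay between -1.13 and -0.81. The genes of the histone fold subunits, which also serve in chromatin complexes, did not pass the test. POLE3 had 145 ± 2.13 and 134 ± 10.3 CPM in shNC and shBry (SD, n = 3), with a log2 fold change of -0.12 (SE 0.08, edgeR adjusted p = 0.24) that turned to 0.08 when libraries were scaled by the reference genes. POLE4 had 48.3 ± 1.97 and 51 ± 9.9 CPM, with a log2 fold change of 0.08 (SE 0.12, edgeR adjusted p = 0.62) that turned to -0.06 without shBry replicate 1. Of the 5 subunit genes beside the 10, 2 thus fell and 3 did not pass the test. Of all genes tested 15.2% were called lower, and the median log2 fold change of the 5 was -0.12.

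**Figure D3:**
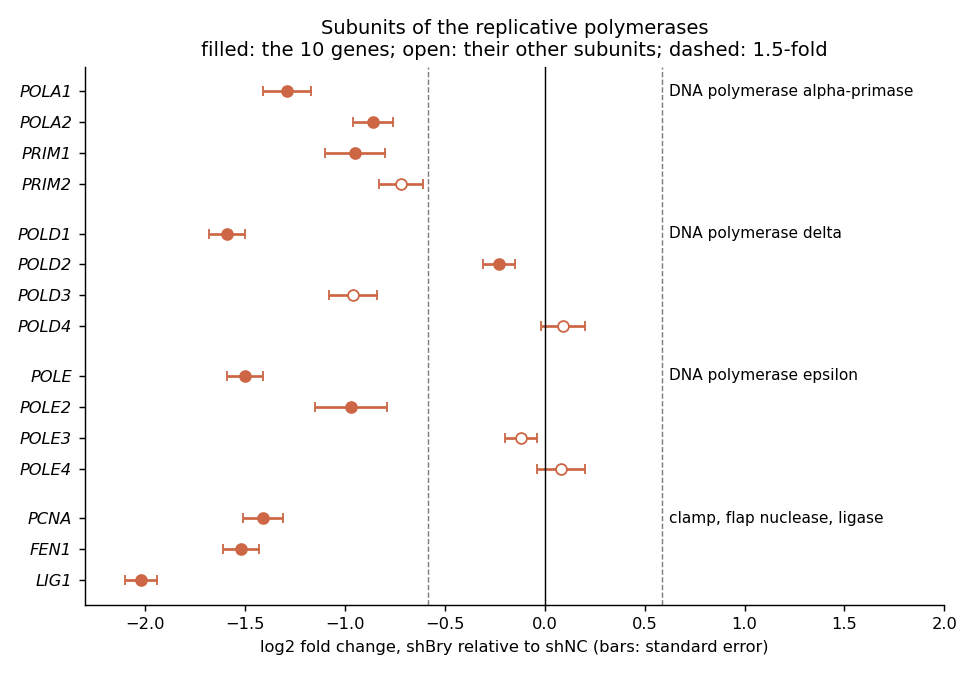
Log2 fold change of shBry relative to shNC (x axis) with its standard error for each subunit gene of the 3 replicative polymerases and for PCNA, FEN1 and LIG1; filled points are the 10 genes, open points their other subunits, dashed lines the fold limit of 1.5. The points of POLD2, POLD4, POLE3 and POLE4 lie between the dashed lines and those of the other 11 genes to the left of them.

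The genes of the clamp and of the enzymes that finish lagging strand fragments held the largest fall. PCNA, on chromosome 20 from 5114953 to 5126626, encodes the ring that holds polymerases, FEN1 and ligase on DNA. It had 146, 162 and 171 CPM in shNC and 56, 56.9 and 67 in shBry, a log2 fold change of -1.41 (SE 0.10, edgeR adjusted p = 3.2e-08). FEN1, on chromosome 11 from 61792637 to 61797244, had 219, 212 and 212 CPM in shNC and 81.5, 66.7 and 76.7 in shBry, a log2 fold change of -1.52 (SE 0.09, edgeR adjusted p = 6.5e-09). The shNC libraries were tight, with an SD of 1.85% of the mean, and other genes, TMEM258 on the opposite strand among them, overlap 8.68% of the exon bases. LIG1, on chromosome 19 from 48115445 to 48170603, fell most of the 10, from 134, 131 and 126 CPM in shNC to 30.9, 33.8 and 31.6 in shBry. Its log2 fold change was -2.02 (SE 0.08, edgeR adjusted p = 2.5e-10), a 4.05-fold fall, and LIG1 was 128th from the lowest log2 fold change among the 15277 genes. LIG3, a ligase gene of nuclear and mitochondrial repair, had 43.8 ± 2.32 CPM in shNC and 60.2 ± 2.01 in shBry (log2 fold change 0.46, edgeR adjusted p = 0.00059), under the fold limit. LIG3 was looked at beside LIG1 after its values were seen, and other genes overlap 30.5% of the LIG3 exon bases.

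Ratios of genes within a library do not depend on how libraries are scaled, and 8 pairs were compared. With 3 libraries against 3, the exact permutation test over libraries cannot give a two-sided p below 0.1, so no pair could pass a threshold of 0.05. The counts of POLD2 were 1.52, 1.58 and 1.59 times those of POLD1 in shNC and 4.17, 3.91 and 3.94 times in shBry. The mean log2 ratio was 1.35 higher in shBry, with SDs of 0.03 and 0.05 within shNC and shBry (exact permutation p = 0.1, adjusted p = 0.16 over 8 pairs), the largest shift of the 8 pairs. POLD2 accordingly held between 22.4% and 24.2% of the summed counts of the 10 genes in shNC and between 41% and 44.2% in shBry. LIG1 was lower against both of its partners. The LIG1 to PCNA ratio was 0.916, 0.805 and 0.734 in shNC and 0.551, 0.593 and 0.471 in shBry, and the LIG1 to FEN1 ratio was 0.612, 0.616 and 0.594 in shNC and 0.379, 0.506 and 0.412 in shBry. The groups did not overlap for either ratio (exact permutation p = 0.1, adjusted p = 0.16 for each). Within DNA polymerase alpha-primase, POLA2 and PRIM1 were higher against POLA1 in shBry, by 0.43 and 0.34 on the log2 scale, without overlap between groups (same p). By contrast the groups overlapped for FEN1 against PCNA, POLE against POLD1 and POLE2 against POLE, with differences of the mean log2 ratio of -0.10, 0.08 and 0.53 (exact permutation p = 0.5, 0.6 and 0.2). The difference for POLE against POLD1 was -0.01 without shBry replicate 2.

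**Figure D4:**
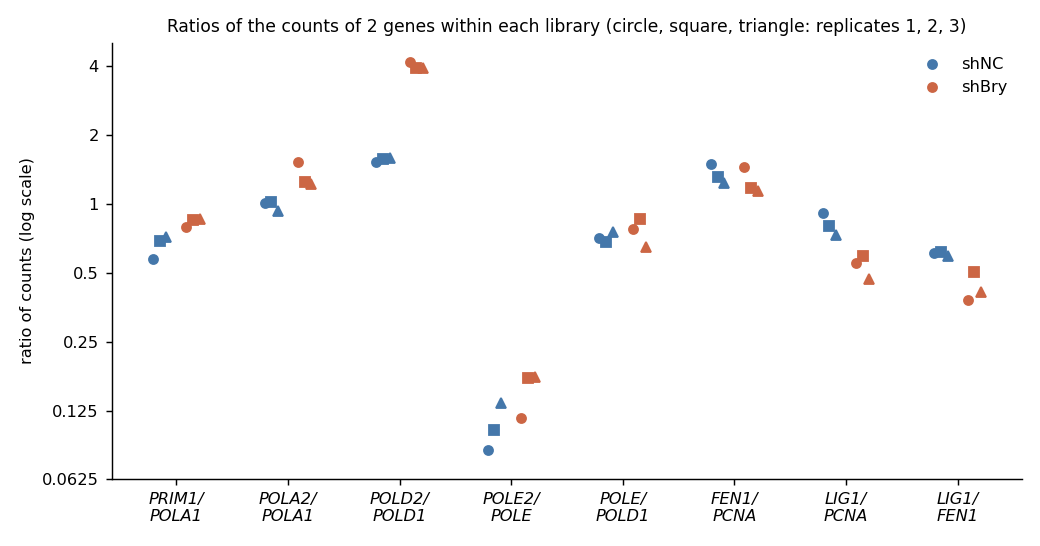
Ratio of the counts of 2 genes within each library (y axis, log scale) for 8 pairs in 3 shNC and 3 shBry libraries. The POLD2 to POLD1 ratio lies between 1.52 and 1.59 in shNC and between 3.91 and 4.17 in shBry, while the FEN1 to PCNA and POLE to POLD1 ratios overlap between groups.

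Levels were ordered per length, as CPM per kilobase of merged GENCODE 29 exons, a scale that depends on the transcripts the annotation lists. In shNC, POLD2 was highest with 124 ± 6.24 CPM per kilobase (SD, n = 3), followed by PCNA with 109 ± 8.67, FEN1 with 93.2 ± 1.73, POLD1 with 51.5 ± 3.2 and LIG1 with 29.6 ± 0.921. PRIM1 (17.8 ± 3.28) and POLE (16.5 ± 0.596) overlapped between libraries, as did POLA1 (6.78 ± 0.562) and POLE2 (6.22 ± 1.33), with POLA2 at 9.8 ± 0.358 between these pairs. In shBry the first 4 genes kept their order, and POLD2, at 105 ± 9.11, stood further above PCNA, at 40.8 ± 4.15. LIG1 passed below PRIM1, with 7.31 ± 0.341 against 9.14 ± 1.25 CPM per kilobase. POLE and POLA2 overlapped at 5.84 ± 0.616 and 5.39 ± 0.291, and POLE2 and POLA1 at 3.16 ± 0.615 and 2.78 ± 0.28.

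Within shNC the order of the 3 libraries was not the same for all 10 genes, though some differences were small and the orders were not tested. POLA1, POLA2, PRIM1, POLE2 and PCNA were lowest in replicate 1 and highest in replicate 3. The other 5, POLD1, POLD2, POLE, FEN1 and LIG1, were lowest in replicate 3. For POLE and FEN1 replicates 2 and 3 were equal to the digits shown, at 127 and 212 CPM. In shBry, 5 of the 10 were lowest in replicate 1, 4 in replicate 2 and 1 in replicate 3. Among the tested genes with the profile nearest to the mean profile of the 10, by Euclidean distance between centred log2 CPM over the 6 libraries, were RIC8B (0.101), ARHGDIB (0.119), SRD5A1 (0.125) and ARRDC1-AS1 (0.126).

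Other genes of the replication fork were examined by role. Among the clamp loaders and the unloader, 5 of 9 genes fell and none rose, where 15.2% of all genes tested were called lower and 17.1% higher. On the reference gene scaling 3 of the 9 were lower and 1 higher, against 1466 and 3918 of all genes tested. CHTF18, the large subunit gene of an alternative loader, had a log2 fold change of -1.17 (edgeR adjusted p = 1.2e-06), RFC5 -1.01 (edgeR adjusted p = 2.3e-07) and RFC2 -0.74 (edgeR adjusted p = 4.9e-05), with RFC2 at -0.55, under the fold limit, on the reference gene scaling. RFC3 and RFC4 were the other 2. RFC1, the large subunit gene of the main loader, did not follow, with 64.1 ± 7.06 CPM in shNC and 85.9 ± 2.06 in shBry (log2 fold change 0.42, under the fold limit), and was named after its values were seen. RPA coats the single strands that the helicase opens. Of its genes, RPA1 fell from 148 ± 10.2 to 76.6 ± 9.42 CPM (log2 fold change -0.95, edgeR adjusted p = 2.2e-06) and RPA3 from 37.3 ± 4.43 to 21.7 ± 3 (log2 fold change -0.78, edgeR adjusted p = 0.00016). RPA2 had 82.1 ± 1.51 and 66.9 ± 6 CPM, with a log2 fold change of -0.30 under the fold limit.

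Of 7 other genes of primer and flap processing, 4 fell and 1 rose, against 3 lower and 2 higher on the reference gene scaling. DNA2, a nuclease for long flaps, had a log2 fold change of -1.47 (edgeR adjusted p = 6.9e-06), the exonuclease gene EXO1 -1.11 (edgeR adjusted p = 3.5e-06) and RNASEH2C -0.93 (edgeR adjusted p = 8.1e-06). RNASEH2A was the fourth, with -0.60, close to the fold limit. Without shBry replicate 2 the list had 3 lower and 1 higher. Other genes overlap 30.8% of the RNASEH2A and 28.2% of the RNASEH2C exon bases. RNASEH2B, the gene of a noncatalytic subunit of the same ribonuclease H2 complex, rose instead, from 17.8 ± 2.6 to 31.7 ± 3.93 CPM (log2 fold change 0.84, edgeR adjusted p = 0.00014). Of 9 scaffold and topoisomerase genes of the fork, 6 fell and none rose, against 6 lower and 1 higher on the reference gene scaling. They included TIMELESS, a fork protection gene, with -1.12 (edgeR adjusted p = 5e-08), TONSL with -1.17 (edgeR adjusted p = 1e-07) and TOP2A, a topoisomerase of dividing cells, with -1.09 (edgeR adjusted p = 1.6e-05). Among 13 genes whose proteins bind or act with PCNA, 8 fell, among them CHAF1A of the chromatin assembly factor with -1.42 (edgeR adjusted p = 8.3e-09) and the uracil glycosylase gene UNG with -1.27 (edgeR adjusted p = 5.3e-08). CDKN1A was the 1 gene of this list that rose, from 62.6 ± 5.07 to 274 ± 16.4 CPM (log2 fold change 2.13, edgeR adjusted p = 2.5e-10). Its product, p21, binds PCNA and inhibits cyclin-dependent kinases. Over all genes tested, 15.2% were called lower and 17.1% higher. On the reference gene scaling 1466 of all genes tested were called lower and 3918 higher.

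Genes of DNA polymerases outside replication were seldom called. Of 14 genes of repair, translesion and mitochondrial polymerases, 1 fell and 1 rose, and their median log2 fold change was 0.01. Over all genes tested, 15.2% were called lower and 17.1% higher. A further 4 of the 14 had an adjusted p under 0.05 (edgeR) but were under the fold limit. On the reference gene scaling none was called lower and 2 were called higher, against 1466 and 3918 of all genes tested. POLH, of a translesion polymerase, fell from 27.3 ± 0.576 to 17.2 ± 0.716 CPM (log2 fold change -0.67, edgeR adjusted p = 0.00015), and was at -0.47 on the reference gene scaling. POLK had a log2 fold change of 0.81 (edgeR adjusted p = 0.013), but its groups overlapped, and without shBry replicate 2 or shNC replicate 1 it did not pass, with 0.45 and 0.65 (edgeR adjusted p = 0.06 and 0.062). POLG, of the mitochondrial polymerase, had 133 ± 7.71 and 93.1 ± 3.64 CPM (log2 fold change -0.52, under the fold limit). No test compared these 14 genes with the 10.

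Markers of dividing cells moved with the replication genes. Of 8 such markers all 8 were called lower, against 15.2% of all genes tested. The summed level of the 8 before TMM was between 1325 and 1471 CPM in the shNC libraries and between 556 and 587 in the shBry libraries. MKI67, the gene of the Ki-67 antigen, had a log2 fold change of -1.84, the mitotic kinase gene PLK1 -1.70 and BIRC5 -1.64. The median of the 8 was -1.29, near the -1.35 of the 10 replicative genes. CCNB1, CDK1 and CCNA2 fell least, with -0.64, -0.66 and -0.72. With a library left out, between 7 and 8 of the markers were called. On the reference gene scaling 5 of the 8 were called. The part of a smaller share of dividing cells in the values of the 10 genes was not tested.

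**Figure D5:**
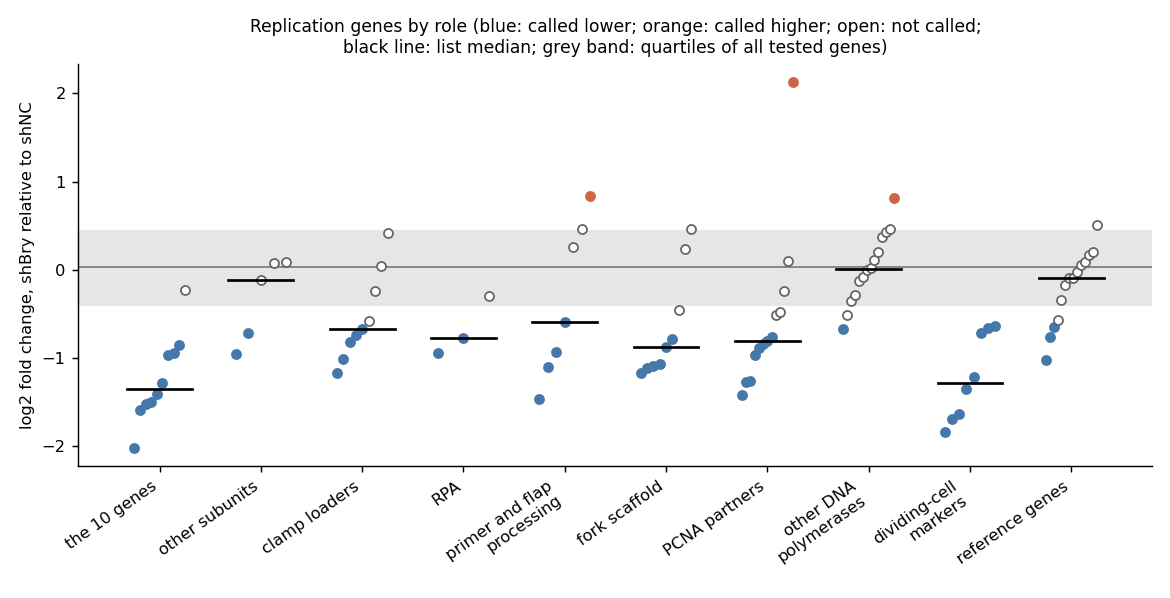
Log2 fold change of shBry relative to shNC (y axis) of each gene in 10 lists by role, with list medians (black lines) and the quartiles of all tested genes (grey band, -0.40 to 0.44). Of the 10 replicative genes 9 lie below the band as called genes, whereas the other DNA polymerases have a median of 0.01, with POLH and POLG below the band and POLK and POLI above it.

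The calls of the 10 genes were the same on another scaling. Reference genes commonly taken as stable had a median log2 fold change of -0.09. Of 14, 3 were called lower, PGK1 with -1.03, SDHA with -0.76 and ACTB with -0.65, and none higher. Over all genes tested, 15.2% were called lower and 17.1% higher. With no fold limit 5 of the 14 were lower and 1 higher, against 25.3% and 28% of all genes tested. The set was thus not fully stable. When libraries were scaled by the geometric mean of these 14 genes, the median of all genes moved by 0.20 on the log2 scale, and 1466 genes were called lower and 3918 higher, against 2325 and 2620 with TMM. The same 9 of the 10 genes were called lower under that scaling, from LIG1 at -1.82 to POLA2 at -0.66.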

How the data were processed

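RNA of MDA-MB-231 shBry and shNC cells, 3 libraries each, was sequenced. The instrument is not given in the sources used here. Titles name the groups 231SH and 231NC, and the protocol names shBry and shNC. The authors deposited raw counts, whole numbers of reads per gene symbol and library without normalization. The submitters' processing notes name HISAT2 2.0.4, HTSeq and GRCh38. The annotation and the strand setting are not given in the sources used here. No row was a total or an unassigned class.

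Genes were filtered with filterByExpr (minimum count 10), which all 10 genes passed, and scaled with TMM. Groups were compared with edgeR 4.0.16 (quasi-likelihood test, R 4.3.3), and genes were called where the p adjusted by Benjamini-Hochberg was under 0.05 and the fold exceeded 1.5. The study's methods give that fold limit with a P under 0.05, do not say whether P was adjusted, and name no test for the sequencing data. Standard errors are the log2 fold change over the root of F. Locations, exon lengths and overlaps are from GENCODE 29 (GRCh38), matched by symbol, with PCLAF under KIAA0101. Genes named were the 10, all genes of lists of up to 5, the 3 smallest adjusted p of longer lists, up to 3 called against the list's direction, and the 5 nearest profiles on log2(CPM + 0.5). The result of 1 gene that this rule names is not reported here. The genes and lists were chosen with earlier results of these data known. The tests were tried on simulated data in which far fewer genes changed than were called here, as many higher as lower. That trial did not test the TMM assumption or the spread between these libraries. Same-numbered libraries did not deviate together (correlations of 0.183, -0.084 and -0.0282), so replicate numbers were not used as a block. Libraries of a group differed by more than sampling noise (chi-square per degree of freedom 5.04 to 17.1). The level of 3 counts set beside the 0 counts of brachyury covers counting error only. Alternatives were no TMM, DESeq2 1.42.0, other filters and fold limits, the replicate block, each library left out and, chosen after seeing the data, reference gene scaling.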

Additional observations from a re-analysis of the deposited data

How the results depend on the processing

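Each of the 10 genes kept its direction and its side of the call threshold in all 12 alternatives run for it, so that 9 were called in every fit, with 6 at a fold limit of 2 and 10 with none. The adjusted p of POLD2 crossed 0.05. With the replicate number as a block 4914 genes and 9 of the 10 were called, and no call of the 10 changed. At a limit of 2, 2297 genes were called, 0 other polymerase subunits, 2 clamp loaders, 0 RPA genes, 2 primer and flap genes, 4 PCNA partners, 0 other DNA polymerases, 5 markers of dividing cells, 1 reference gene and 1 marker of the cell line. Without a limit, 8139 genes were called, 6 other DNA polymerases, 6 reference genes, 7 markers of the line and 2 pericardial markers. Reference gene scaling, chosen after seeing the data, left 1 other polymerase subunit, 5 markers of dividing cells and 2 pericardial markers called. With a library left out, between 4587 and 5025 genes were called, between 1 and 3 other DNA polymerases, between 1 and 2 markers of the line and between 0 and 1 pericardial markers. POLE3 was 0.08 with reference gene scaling, POLD4 lay between -0.04 (without shNC replicate 3) and 0.14 with a library left out, POLE4 between -0.06 (without shBry replicate 1) and 0.21, and the POLE to POLD1 log2 ratio lay between -0.01 and 0.19 (main 0.08). The cause of these changes was not tested, beyond the limits themselves. Depth limits POLE2 most, with as few as 105 counts in a library.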

Other observations

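Of the 8 markers of the cell line, 1 fell and 1 rose, where 15.2% of all genes tested were called lower and 17.1% higher. With no fold limit 4 of the 8 were lower and 3 higher, against 25.3% and 28% of all genes tested. CAV1, a caveola coat gene, had a log2 fold change of -1.11 and ZEB1, a mesenchymal transcription factor gene, 0.67, which went under the fold limit without shBry replicate 2 (0.50) or shNC replicate 2 (0.56). MSN and SPARC, at -0.47 each, were under the limit. Among markers the line lacks or holds at low level, EPCAM had 1.55 ± 0.513 CPM in shNC and 4.28 ± 0.681 in shBry (SD, n = 3), a log2 fold change of 1.47, and GATA3 had 0.33 and was not called. Of the 9 pericardial and heart genes, MSLN had 32.1 ± 3.84 and 45.9 ± 2.89 CPM (log2 fold change 0.52), under the limit with TMM and over it, at 0.71, with reference gene scaling. CALB2 was called lower, but 1 library held it. It had 1.37, 1.37 and 11.1 CPM in shNC and between 0.59 and 1.13 in shBry, and its log2 fold change went from -2.52 to -0.81 (adjusted p = 0.11, edgeR's quasi-likelihood test) without shNC replicate 3. The 6 leukocyte genes had at most 3 counts in any library, and none was tested.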
